A study of Homo sapiens with 12 samples.

Results

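The glycine tRNAs with the anticodon CCC were taken as every listed cytosine whose tRNA name begins with tRNA-Gly-CCC. This gave 2 of the 15 tRNAs in the site lists, tRNA-Gly-CCC-1-1 and tRNA-Gly-CCC-2-2, with 7 of the 59 listed cytosines and 23 entries over the libraries. Cytosine methylation of tRNA was read by bisulfite sequencing, in which an unmodified cytosine is read as T whereas a protected one stays C and is taken as methylated. The samples were 6 libraries of U251, an established human glioblastoma cell line, 3 carrying the label Si and 3 the label NC. All of them came from small RNA treated with AlkB, an enzyme that strips certain base methylations from RNA. The titles give no more than Si and NC. Si was read as the knockdown of NSUN3, from the series' design text, and NC as its control, whose treatment, like the Si reagent, the labels do not describe. The 6 libraries of T98G, another glioblastoma line, were not analysed here, and no transcript was measured that could check the knockdown or the cell line.

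Glycine tRNA carries glycine to the ribosome, and the isoacceptor with the anticodon CCC pairs with the codon GGG. Isodecoders are tRNAs that share an anticodon and differ in the rest of their sequence. Human tRNAs are methylated at the junction of the variable loop and the T stem by NSUN2, a nuclear RNA methyltransferase, and this methylation is known to shield tRNA from cleavage. NSUN3 is known for another substrate, the wobble cytosine of mitochondrial tRNA-Met, and cytosolic glycine tRNAs are not among its known targets. TRDMT1, also called DNMT2, methylates the anticodon loop of a few tRNAs, among them glycine tRNA with the anticodon GCC.

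The sequences below, from the deposited files, show where the listed cytosines lie, in capitals, in both isodecoders and in the pair of glycine GCC tRNAs used for comparison.
tRNA-Gly-CCC-1-1: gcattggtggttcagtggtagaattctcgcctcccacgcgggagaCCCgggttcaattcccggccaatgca
tRNA-Gly-CCC-2-2: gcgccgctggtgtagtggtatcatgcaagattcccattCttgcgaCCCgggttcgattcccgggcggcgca
tRNA-Gly-GCC-1-1: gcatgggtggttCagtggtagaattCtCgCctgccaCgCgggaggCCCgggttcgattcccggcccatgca
tRNA-Gly-GCC-2-1: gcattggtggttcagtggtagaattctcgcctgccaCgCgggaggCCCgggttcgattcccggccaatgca

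Each of these tRNAs has 71 bases, and bases 46, 47 and 48 counted from the 5′ end are standard positions 48, 49 and 50. Standard numbering sets the anticodon, here bases 33 to 35, at 34 to 36. In all 4 tRNAs these 3 positions are cytosines in a row. Position 48 is the last base of the variable loop, and positions 49 and 50 are the first bases of the T stem. The CCC isodecoders are not close relatives. They differ at 23 of 71 bases (67.6% identity), with an 11-base stretch, bases 44 to 54, that is the same around the junction. tRNA-Gly-CCC-1-1 is far closer to tRNA-Gly-GCC-2-1, from which it differs at 3 bases (95.8% identity). With the tRNA-Gly-GCC-2-1 base first and bases counted from 1 at the 5′ end, the differences are G33C in the anticodon, G45A directly before the junction cytosines and G55A in the T loop. All 3 differences remain when every C is read as T. No source used here names the aligner, so how far reads of such near-identical tRNAs were shared or divided is unknown, and the values of tRNA-Gly-CCC-1-1 are uncertain to that extent.

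Coordinates are on hg38, and each tRNA has the chromosome, start and end of a tRNA gene in RefSeq's GRCh38.p14 table. tRNA-Gly-CCC-1-1 is TRG-CCC1-1 on chromosome 1, 16545939 to 16546009, minus strand, and overlaps no other gene of that table. Its positions 48, 49 and 50 are at 16545964, 16545963 and 16545962. The files give 2 gene copies for this sequence, both on chromosome 1. tRNA-Gly-CCC-2-2 is TRG-CCC2-2 on chromosome 16, 636736 to 636806, minus strand, between METTL26, which ends 431 bases before it, and the long noncoding RNA LOC100287175, which starts 146 bases after it. It also lies within the span given to the pseudogene LOC102723945. Its positions 40, 48, 49 and 50 are at 636768, 636761, 636760 and 636759. A second copy of the sequence is on chromosome 2. The mature sequence of each spans the whole gene, without an intron.

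The lists hold no entry under 30 reads or under a level of 10.0%, so the level of an unlisted cytosine is unknown and was never set to 0. Listed coverage ran from 30 to 210 reads over all tRNAs and from 32 to 48 reads for glycine CCC, so the latter lies near the lower end. The NC libraries listed 3 glycine CCC cytosines each. Si replicate 1 listed 6, and Si replicates 2 and 3 listed 4 each. None of the glycine CCC reads showed a base other than C or T. The labels do not tell whether replicates were separate cultures. Except in Fisher's exact test, which sums the reads of each group, p-values measure the spread between these libraries, which may be technical. Intervals are exact binomial 95% intervals (Clopper-Pearson) for counting error only.

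tRNA-Gly-CCC-1-1 was highly methylated at position 49, the one glycine CCC cytosine listed in all 6 libraries. The NC libraries had 92.3% (36 of 39 reads), 85.0% (34 of 40) and 94.7% (36 of 38). The Si libraries had 82.5% (33 of 40 reads), 89.7% (35 of 39) and 93.8% (30 of 32). The groups overlap, and the lowest level, in Si replicate 1, has an interval of 67.2% to 92.7% that takes in both group means. The mean was 90.7% ± 5.07 over the NC libraries (SD, n = 3). Over the Si libraries it was 88.7% ± 5.70 (SD, n = 3).

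Position 50 of the same tRNA stood at a similar level. It was 85.7% (30 of 35 reads), 89.2% (33 of 37) and 97.3% (36 of 37) in NC, and 91.4% (32 of 35) and 85.0% (34 of 40) in Si replicates 1 and 2. Si replicate 3 did not list it. The NC mean was 90.7% ± 5.94 (SD, n = 3). The Si mean was 88.2% ± 4.55 (SD, n = 2), and the groups again overlap. Within a library, position 49 was higher than position 50 in 2 of 5 libraries and lower in 3, with a mean difference of -0.868 ± 2.88 percentage points (SE). The exact two-sided permutation p over the 5 libraries was 0.75, where the smallest possible is 0.0625, and the sign of the mean turned to 1.15 points without Si replicate 1. A read over one of these cytosines usually covers the other as well.

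Position 48, directly before them, was low. It was listed in 4 libraries with exactly 4 methylated reads in each, giving 10.3% of 39 reads in NC replicate 1, 10.0% of 40 in NC replicates 2 and 3, and 11.8% of 34 in Si replicate 3. Pooled over these libraries, 16 of 153 reads were methylated, or 10.5% (6.10% to 16.4%). These levels sit at the lowest value that the lists hold, so they are those of libraries in which the site reached it. Si replicates 1 and 2 did not list it. Within the 4 libraries that did, position 49 was higher than position 48 by 75.0 to 84.7 percentage points, a step of 80.9 ± 2.08 points (SE) between adjacent cytosines that was given no test, since it was noticed in these values.

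tRNA-Gly-CCC-2-2 was listed in Si libraries alone. Listing in a single group was not particular to it among the 15 tRNAs. tRNA-Thr-CGT-2-1 was listed in 3 NC libraries and no Si library, with 35 to 39 reads at position 48. tRNA-Ser-TGA-1-1 (2 libraries) and tRNA-Leu-CAA-1-1 (1 library) were also listed in NC alone. At position 49 tRNA-Gly-CCC-2-2 had 81.6% (31 of 38 reads), 85.3% (29 of 34) and 75.6% (31 of 41) in Si replicates 1, 2 and 3. At position 50 it had 81.1% (30 of 37), 84.4% (27 of 32) and 84.2% (32 of 38). The levels of both junction cytosines were thus high, with means of 80.8% ± 4.89 and 83.2% ± 1.86 (SD, n = 3). Si replicate 1 also listed position 48, at 14.3% (6 of 42 reads, 5.43% to 28.5%), and position 40 in the anticodon stem, at 10.4% (5 of 48 reads, 3.47% to 22.7%). The pattern at the junction in that library was that of tRNA-Gly-CCC-1-1 elsewhere, with position 48 low and positions 49 and 50 high.

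**Figure D1:**
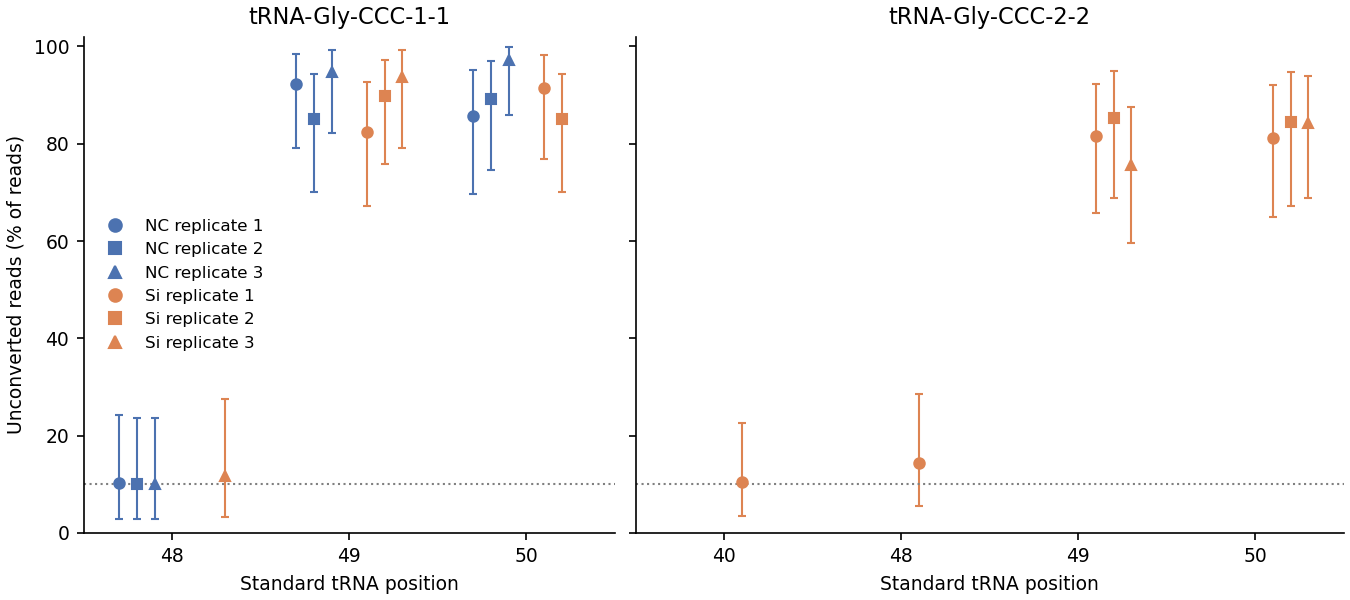
Methylation level in percent of reads at each listed cytosine of tRNA-Gly-CCC-1-1 (left) and tRNA-Gly-CCC-2-2 (right) by standard position. Points are single libraries, bars are exact binomial 95% intervals and the dotted line is the lowest listed level, 10.0%. Positions 49 and 50 lie between 75.6% and 97.3%, and positions 40 and 48 between 10.0% and 14.3%.

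The first comparison asked whether methylation of these cytosines differed between Si and NC. It could be made for positions 49 and 50 of tRNA-Gly-CCC-1-1, and neither passed. The difference, Si minus NC, was -2.02 ± 4.40 percentage points at position 49 and -2.52 ± 4.70 at position 50 (SE). The log2 odds ratios were -0.34 and -0.43, both with an adjusted p of 0.984 in edgeR's quasi-likelihood test. From the reads summed per group, Fisher's exact test put the log2 odds ratio at -1.73 to 1.00 at position 49 and -1.97 to 1.13 at position 50 (95% intervals, counting error only). These intervals are wide, and differences of either sign that lie within them remain possible. The sign turned at position 49 without Si replicate 1 (0.16) and at position 50 without NC replicate 3 (0.055). Of the 31 sites tested over all tRNAs 3.23% were called, which is 1 site, and 0 of the 2 glycine CCC sites were. By unadjusted p under 0.05, 9.68% of the 31 sites and 0 of these 2 stood out.

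The 2 cytosines belong to the junction class, positions 48 to 50 of any tRNA, which holds 27 of the 59 listed cytosines. Of its 18 tested sites, 12 were fitted lower in Si and 6 higher, with a median log2 odds ratio of -0.15, beside -0.11 over all 31 sites. In the class 5.56% were called, which is the same 1 site, in tRNA-iMet-CAT-1-1, the initiator, at position 48. That call was lost when any one of the 6 libraries was left out, and limma called 0 of the 31. With a library left out its log2 odds ratio was still -1.10 to -0.89. The call held with Fisher's exact test (adjusted p = 0.00276), which sums the reads of each group and ignores the spread between libraries. In edgeR's quasi-likelihood test the call also held with a replicate block (adjusted p = 0.0335) and a minimum of 40 reads (adjusted p = 0.0247). Position 48 of tRNA-Gly-CCC-1-1, listed in 3 NC libraries and 1 Si library, had too few entries for a test, and so had every cytosine of tRNA-Gly-CCC-2-2.

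Coverage of tRNA-Gly-CCC-1-1 was close to equal in the groups. The highest coverage over its cytosines was 39, 40 and 40 reads in NC and 40, 40 and 34 reads in Si. This highest value was not at the same base in each library. It was at base 46 in NC replicate 3 and Si replicate 3, base 47 in Si replicate 1 and base 48 in Si replicate 2. Si replicates 1 and 2 did not list base 46. Relative to the 9 tRNAs listed in all 6 libraries the highest coverage was 1.11-fold in Si, with an adjusted p of 0.523 in edgeR's quasi-likelihood test. Of those 9 tRNAs 44.4% were called, which is 4. Without scaling to the other tRNAs the log2 fold change turned from 0.15 to -0.062.

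Coverage of tRNA-Gly-CCC-2-2 at position 49 was 38, 34 and 41 reads in the Si libraries, beside 40, 39 and 32 reads for tRNA-Gly-CCC-1-1 in the same libraries. The ratio was 0.950, 0.872 and 1.28, so in Si the isodecoders were read about equally often. In NC, tRNA-Gly-CCC-2-2 is missing from the lists, and neither its coverage nor its level there is known. All its values at the junction in Si come from 32 to 42 reads, within 12 reads of the smallest listed coverage. At position 49 the read numbers of both glycine GCC tRNAs did not overlap between the groups, but this was not particular to them. The same held there for tRNA-Glu-TTC-2-1, with 46 to 59 reads in NC and 65 to 73 in Si. It held in the other direction for tRNA-His-GTG-1-4 (88 to 97 in NC, 36 to 44 in Si) and tRNA-Asp-GTC-1-1 (42 to 49 in NC, 31 to 38 in Si). The groups overlapped for tRNA-Gly-CCC-1-1 and tRNA-Asp-GTC-2-5. tRNA-Gly-GCC-2-1 had 85, 81 and 91 reads in NC and 159, 123 and 130 in Si, and tRNA-Gly-GCC-1-1 had 44, 36 and 50 in NC and 60, 51 and 57 in Si. In the coverage test tRNA-Gly-GCC-2-1 rose 1.85-fold in Si, with an adjusted p of 0.000877 in edgeR's quasi-likelihood test, and tRNA-Gly-GCC-1-1, at 1.57-fold and an adjusted p of 0.123, did not pass. The latter passed with the median coverage over its sites (adjusted p = 0.00378) and without Si replicate 1 (adjusted p = 0.0416). Its highest listed coverage was not at the same base in each library. It was at base 37 in NC replicate 2 and Si replicate 1 (45 and 71 reads). In the other libraries it was at base 13 or 26 (97 to 137 reads), which those 2 did not list. Whether a change in reads moved tRNA-Gly-CCC-2-2 into the Si lists was not tested.

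**Figure D2:**
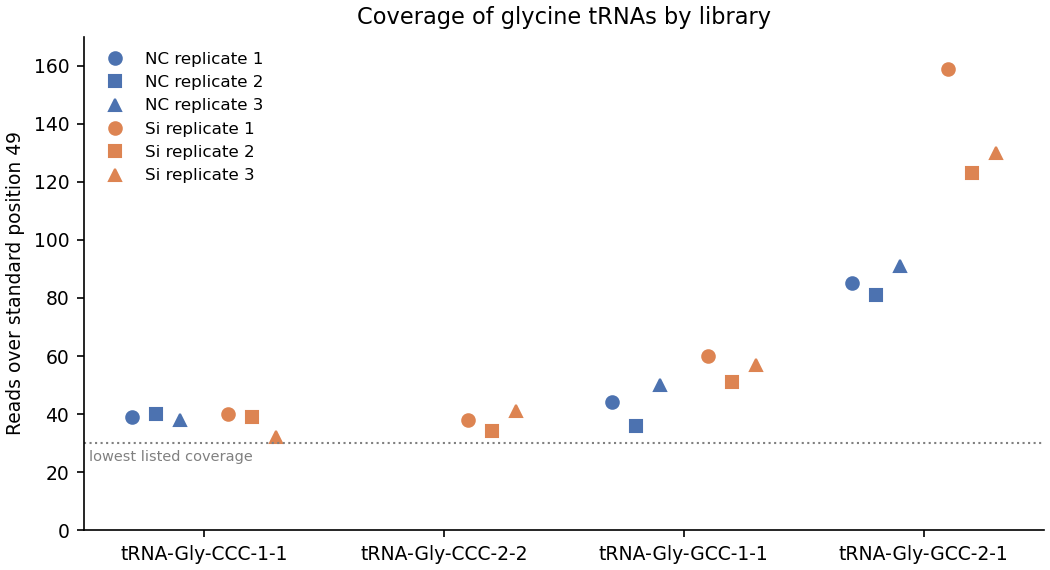
Reads over standard position 49 of the 4 glycine tRNAs by library. The dotted line is the lowest listed coverage, 30 reads. tRNA-Gly-CCC-1-1 lies between 32 and 40 reads in both groups, tRNA-Gly-CCC-2-2 appears in the 3 Si libraries alone, and both glycine GCC tRNAs lie higher in Si.

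The isodecoders were next compared within the libraries that list both, all of them Si. At position 49, tRNA-Gly-CCC-1-1 was higher by 0.921, 4.45 and 18.1 percentage points in Si replicates 1, 2 and 3. The mean difference was 7.84 ± 5.25 points (SE), higher in 3 of 3 libraries, with an exact two-sided permutation p of 0.25, the smallest that 3 libraries allow. It rests largely on Si replicate 3, without which it was 2.69 points. At position 50 the difference was 10.3 points in Si replicate 1 and 0.625 in Si replicate 2, and 2 libraries allow no exact permutation p below 0.5. With so few libraries neither comparison could pass 0.05, so they do not show whether the isodecoders differ in level.

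The glycine GCC tRNAs are the nearest comparison, as they share the same cytosine triplet. At position 49, tRNA-Gly-CCC-1-1 was higher than tRNA-Gly-GCC-2-1 in 6 of 6 libraries, by at least 7.22 percentage points. The means were 89.7% ± 4.95 and 75.3% ± 4.20 (SD, n = 6), a difference of 14.4 ± 1.93 points (SE). The exact two-sided permutation p was 0.0312, the smallest that 6 libraries allow. It was 0.0625 after adjustment over the 2 comparisons with glycine GCC tRNAs, which does not pass 0.05. An adjusted p below 0.05 needed both comparisons to reach that smallest p, so this one could not pass alone. Against tRNA-Gly-GCC-1-1, at 93.0% ± 2.78 (SD, n = 6), tRNA-Gly-CCC-1-1 was lower in 4 of 6 libraries. The mean difference was -3.32 ± 2.32 points (SE), with an exact permutation p of 0.25 and 0.25 after adjustment. Without Si replicate 1 that mean difference was -1.48 points.

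At position 48 the isoacceptors stood far apart, a contrast noticed in the values and given no test. In the 4 libraries that list all of them, tRNA-Gly-CCC-1-1 had 10.0% to 11.8%. tRNA-Gly-GCC-1-1 had 86.0%, 75.0%, 69.4% and 71.9% in NC replicates 1, 2 and 3 and Si replicate 3. tRNA-Gly-GCC-2-1 had 68.2%, 60.8%, 65.2% and 63.8% in the same libraries. The difference was -65.1 ± 3.78 and -54.0 ± 1.62 points (SE), and in each library the gap was at least 50.8 points. At position 50 the order was the reverse for tRNA-Gly-GCC-2-1, which was below tRNA-Gly-CCC-1-1 in 5 of 5 libraries by 13.6 to 42.1 points. tRNA-Gly-GCC-1-1 was below it in 3 of 5 libraries and above it in 2, with a difference of 7.21 ± 4.35 points (SE) that ranged from -2.76 to 21.8. The pair that differs at 3 bases thus stood in opposite order at positions 48 and 50.

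**Figure D3:**
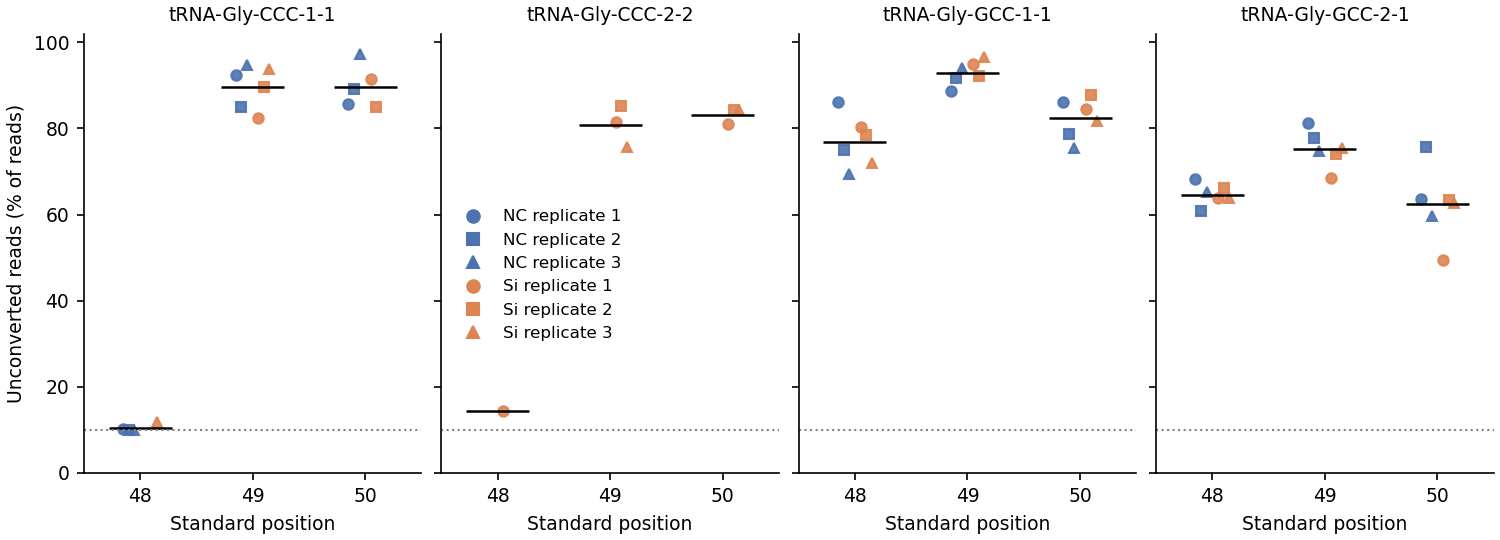
Methylation level in percent of reads at standard positions 48, 49 and 50 of the 4 glycine tRNAs. Points are single libraries, black bars are means over the libraries that list the site, and the dotted line is the lowest listed level. Position 48 is at 10.0% to 14.3% in both CCC isodecoders and at 60.8% to 86.0% in both GCC ones.

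The order of levels over all tRNAs shows where these sites belong. Position 48 was listed in 14 tRNAs, 5 of them with a mean at or under 20% and 9 over 50%, with 0 between. The highest of the 5, tRNA-His-GTG-1-4, lies close to that cut, at 19.4% ± 4.28 (SD, n = 6). Its single libraries ran from 11.8% to 24.4%. tRNA-Gly-CCC-1-1 had the lowest mean, 10.5%, and tRNA-Gly-CCC-2-2 ranked 3 of 14 with 14.3% in 1 library. The neighbours in that order, tRNA-Glu-TTC-2-1 at 11.9% in 2 libraries and tRNA-Asp-GTC-1-1 at 15.1% ± 1.71 (SD, n = 5), overlap with them in their counting intervals. Levels below the lowest listed one are missing, so these means are of listed libraries. The neighbouring bases, looked at after the levels were known and given no test, split the 14 tRNAs in part. Position 48 is followed by C in 8 of them, and these hold all 5 low ones and 3 high ones, both glycine GCC tRNAs and tRNA-Asp-GTC-2-5. It is preceded by A in 5, of which 4 are low, both CCC isodecoders among them. The exception is tRNA-Asp-GTC-2-5, at 86.2% ± 4.08 (SD, n = 6), and the low tRNA-Glu-TTC-2-1 has G there.

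**Figure D4:**
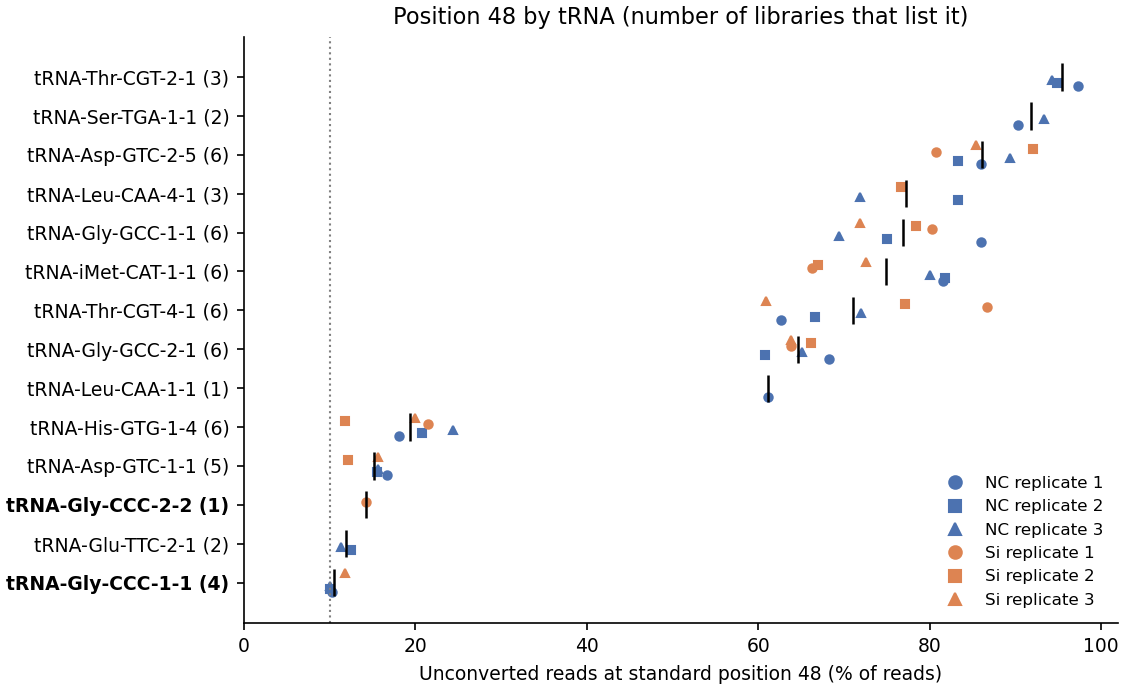
Methylation level in percent of reads at standard position 48 in each tRNA that lists it, ordered by the mean over its libraries (black bar). Points are single libraries, the number of libraries is in parentheses, and the dotted line is the lowest listed level. The CCC isodecoders, in bold, are among the 5 tRNAs with a mean at or under 20%, and 9 have a mean over 50%.

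At position 49, tRNA-Gly-CCC-1-1 ranked 6 of 8 tRNAs from the lowest, between tRNA-Asp-GTC-1-1 at 89.5% ± 4.53 and tRNA-Gly-GCC-1-1, whose ranges over the libraries overlap with its own. tRNA-Gly-CCC-2-2 ranked 3 of 8. At position 50 they ranked 4 and 3 of 5. Among 20 sites of other tRNAs listed in all 6 libraries, 3 were most like position 49 of tRNA-Gly-CCC-1-1 by the mean absolute difference in level over the 6 libraries. These were position 50 of tRNA-Glu-TTC-2-1 at 4.09 percentage points, position 48 of tRNA-Asp-GTC-2-5 at 4.30 and position 49 of tRNA-Gly-GCC-1-1 at 4.79.

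Outside the junction, the cytosines listed also differed between the CCC isodecoders and the glycine GCC tRNAs. This is a difference in listing, not a measured one in level. Each CCC isodecoder has 21 cytosines, of which 3 were listed for tRNA-Gly-CCC-1-1 and 4 for tRNA-Gly-CCC-2-2. All 9 bases listed as a methylated cytosine in a glycine GCC tRNA are cytosines in tRNA-Gly-CCC-1-1 too, but only the 3 at the junction were listed there. Of the other 6, bases 13, 26, 28 and 30 were listed in tRNA-Gly-GCC-1-1 in 1 to 3 libraries each. Their levels there, 10.0% to 10.8%, lay near the smallest listed one, and tRNA-Gly-GCC-2-1 did not list these bases either. Another of the 6 is position 38, the TRDMT1 site, at base 37. It was listed in all 6 libraries for tRNA-Gly-GCC-1-1, at 82.4% to 94.3%, and for tRNA-Gly-GCC-2-1, at 51.7% to 67.1%, and in no library for tRNA-Gly-CCC-1-1. Its coverage there is not in the lists, so the level of tRNA-Gly-CCC-1-1 at position 38 is unknown. tRNA-Gly-CCC-2-2 has no cytosine at that base. Position 40 was listed at 10.4% in tRNA-Gly-CCC-2-2, at 12.7% and 10.7% in tRNA-Gly-GCC-1-1 in Si replicates 1 and 2, and at 12.2% in tRNA-Gly-GCC-2-1 in NC replicate 2, each near the smallest listed level.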

How the data were processed

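Per the labels' protocols, small RNA was enriched, demethylated with AlkB, converted with bisulfite and size-selected for tRNA. Of tools and builds, cutadapt 1.9.3 and hg38 come from the submitters' processing notes, and no source used here gives the aligner or site caller. Per the file headers, the authors deposited read counts per listed site: coverage, unconverted reads and reads with another base. The authors also deposited the level as a fraction, which equals unconverted reads over coverage less reads with another base, within rounding (0.0005). Incomplete conversion would also be read as methylation.

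Levels were recomputed from the counts. A site was testable when 2 or more libraries of each group had 10 or more reads. edgeR 4.0.16 (R 4.3.3), with glmQLFit and glmQLFTest, fitted the methylated against the unmethylated reads of each library as a pair, with Benjamini-Hochberg adjustment over all 31 sites and a threshold of 0.05. Coverage, as the highest over the listed cytosines of each tRNA, was tested with edgeR and TMM scaling over 9 tRNAs. Within-library differences were tested by exact permutation of signs in scipy 1.17.1. Alternatives used limma 3.58.1, DESeq2 1.42.0, Fisher's exact test, other read minimums, a replicate block and left-out libraries. The edgeR, limma and permutation tests were checked on simulated data.

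All glycine CCC cytosines are named. Members, lists and tests were chosen with earlier results of these data known. Listed coverage of 30 to 210 reads is not library depth, which is unknown. Same-numbered libraries share only a number, so the main tests use no block.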

Additional observations from a re-analysis of the deposited data

How the results depend on the processing

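No glycine CCC site passed under any alternative that could be run (0 called with limma, Fisher's exact test, the replicate block and each library left out). The coverage of tRNA-Gly-CCC-1-1 passed under none of its alternatives either. The within-library comparisons could not change side, as each alternative with a p rests on 5 libraries or fewer. Those allow no exact permutation p below 0.0625. With a minimum of 40 reads neither glycine CCC site could be tested, nor could the isodecoders be compared with a minimum of 35. Over all tRNAs, edgeR called 4 coverage differences, against 2 with DESeq2, 5 without scaling, 6 with the median site coverage and 3 or 4 with a library left out. For methylation, limma and each left-out library gave 0 called sites where edgeR gave 1. Signs of small differences turned. The log2 odds ratio at position 50 of tRNA-Gly-CCC-1-1 was 0.035 with the replicate block. Leaving out single libraries gave -0.90 to 0.055 there and -0.89 to 0.16 at position 49. The log2 fold change in coverage of tRNA-Gly-CCC-1-1 was -0.062 without scaling, which shifted the median of all 9 tRNAs from 0.064 to -0.15, and -0.087 with the site of lowest coverage; the replicate block gave 0.15 and left-out libraries 0.095 to 0.21. Position 49 minus position 50 ran from -2.73 to 1.15 points. The cause of these turns was not tested. Alternatives for the coverage of the glycine GCC tRNAs and for tRNA-iMet-CAT-1-1 were added after seeing the data. Of 96 alternative values in all, 81 were taken as unchanged and 6 reversed. Another 7 for tRNA-iMet-CAT-1-1 no longer passed and 2 for coverage of tRNA-Gly-GCC-1-1 newly passed. The unchanged values kept their direction and, where a p was computed, their side, or were again a count of 0 called sites. tRNA-Gly-CCC-1-1 minus tRNA-Gly-CCC-2-2 at position 49 ran from 2.69 to 11.3 points, tRNA-Gly-CCC-1-1 minus tRNA-Gly-GCC-2-1 from 13.3 to 15.8 and minus tRNA-Gly-GCC-1-1 from -4.72 to -1.48. The adjusted exact permutation p against tRNA-Gly-GCC-2-1 was 0.125 without each library. It came from the smallest unadjusted p that 5 libraries allow, so it bears on no call. Deviations of same-numbered libraries correlated at 0.0616, 0.265 and -0.376 over 21 sites, so the numbers were not taken as pairs. The 32 to 48 reads behind each level limit its precision.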
